A study of Mus musculus with 58 samples.

Results

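The transcripts followed here belong to the part of the visual cycle that lies in the photoreceptors and the Muller glia of the retina. They are 8 genes, Rdh8, Rdh12, Abca4, Rbp3, Dhrs3, Rdh10, Rdh11 and Rlbp1, picked by symbol from the 52459 rows of the count table. Each symbol names a single gene in the Gencode annotation. The rule that picks them uses their symbols and no measured value, although results of these data were known when the genes were chosen. Total RNA of single retinas, depleted of ribosomal RNA, was sequenced in 58 libraries at 6 times of a cycle of 12 h light and 12 h dark. Time is given as ZT, the hours after lights on. The control retinas came from wild-type male littermates on the C57BL/6 background, with 6 libraries at ZT5, 4 at ZT21 and 5 at each of ZT1, ZT9, ZT13 and ZT17. The diabetic retinas came from heterozygous male Ins2Akita mice with blood glucose above 250 mg/dL, with 4 libraries at ZT13 and at ZT17 and 5 at each other time. All mice were 4 months old, bore no other allele or treatment by the labels, and were perfused with saline before dissection. Ins2Akita is a model of type 1 diabetes in which misfolded insulin damages the beta cells, so the retina is exposed to the whole diabetic state from early life and not to glucose alone. Only males were studied. The labels name each library as a separate sample of its group, but do not say whether both retinas of a mouse were used, and the p-values cover the spread between these samples.

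Light turns the 11-cis-retinal bound to opsin into all-trans-retinal, and the visual cycle turns it back. ABCA4 moves the retinal out of the disc membranes, dehydrogenases such as RDH8, RDH12 and DHRS3 reduce it to all-trans-retinol, and the carrier IRBP, the product of Rbp3, takes retinoids across the space between photoreceptors and the pigment epithelium. The epithelium esterifies the retinol with LRAT, isomerizes it with RPE65 and oxidizes it back to 11-cis-retinal with RDH5, RDH10 and RDH11, on the carrier CRALBP, the product of Rlbp1. Rlbp1 and Rdh10 are known to be expressed in Muller glia and in the pigment epithelium alike, so a retina that carries some pigment epithelium adds to both.

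Counts on genes ranged from 7773117 to 22147398 per library, with a median of 15406440.5, and all 8 genes lay far above the expression threshold, a median of 4 normalized counts over all libraries. Normalized counts are counts divided by the size factor of the library. Of the markers listed to check the tissue label, all 10 rod, 10 cone and 10 Muller glia markers were expressed, while none of the 5 blood and none of the 5 cornea and ciliary body markers reached the threshold. Single libraries stood apart in these lists. Control ZT5 replicate 5 had 509 summed normalized counts of the cornea and ciliary body markers, where the control median was 8.06, and 122 of the blood markers, where it was 5.56. Diabetic ZT13 replicate 5 had 124 and 142, where the diabetic medians were 11.5 and 6.25, and diabetic ZT1 replicate 5 had the highest blood sum, 190. Control ZT17 replicate 5 and diabetic ZT17 replicate 4 had 203 and 135 of the cornea and ciliary body markers. Diabetic ZT13 replicate 1 had 124 of the blood markers. Lens markers stood apart in 3 control libraries, ZT1 replicate 6, ZT17 replicate 5 and ZT21 replicate 2, which had 32022, 22092 and 25497 summed normalized counts against at most 713 in the other 55. Calls of the 8 genes that these libraries change are given with and without them. Markers of the pigment epithelium, 10 genes in sum, ran from 386 to 4270 normalized counts per library and moved with time of day, as described with Rdh10 below.

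The promoters of Abca4 and Rbp3 are shown because these 2 photoreceptor transcripts followed each other most closely among the 8 genes, with a Pearson correlation of 0.86 over the 12 means of genotype and time point. This is a description over 12 points that share libraries and normalization. Both windows hold the letters TAATCC, read here from the opposite strand as GGATTA and set in capitals, a site that the photoreceptor factors CRX and OTX2 are known to bind. The sequences are from RefSeq on GRCm38.p6, on the + strand, and run from 250 bases before to 50 bases after the transcript start.
Abca4, chr3:122044210-122044509: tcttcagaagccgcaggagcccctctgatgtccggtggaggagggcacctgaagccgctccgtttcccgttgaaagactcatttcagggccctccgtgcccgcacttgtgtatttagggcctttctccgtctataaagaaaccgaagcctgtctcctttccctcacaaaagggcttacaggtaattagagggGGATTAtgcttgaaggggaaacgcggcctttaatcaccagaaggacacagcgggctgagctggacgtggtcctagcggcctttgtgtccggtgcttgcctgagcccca
Rbp3, chr14:33953753-33954052: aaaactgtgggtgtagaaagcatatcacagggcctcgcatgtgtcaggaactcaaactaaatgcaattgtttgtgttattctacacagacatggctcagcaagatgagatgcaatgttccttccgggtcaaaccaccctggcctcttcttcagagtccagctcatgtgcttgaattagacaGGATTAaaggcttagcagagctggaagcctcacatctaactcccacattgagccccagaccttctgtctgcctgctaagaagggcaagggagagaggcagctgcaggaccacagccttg

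The first base of the site lies 58 bases before the start of Abca4 and 69 before that of Rbp3. Windows were given for 7 of the 8 genes, 10 windows in all, and 2 of the 10 held TAATCC on either strand, against 7.06% of all 32851 windows of this length. The E-box CACGTG was found in 1 of the 10, a window of Rdh11, and in 7.15% of all. Neither TTATGTAA, the D-box, nor AAGGTCA, a site of ROR receptors, was in any of the 10, and they were in 0.938% and 4.72% of all windows. A match is a run of letters and not a site shown to be bound.

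The 8 transcripts differed widely in level. Exon length here is that of the merged exons of all annotated transcripts of a gene. These are 10 transcripts for Abca4, 8 for Rlbp1 and 1 each for Rbp3 and Rdh8, so the order that follows depends on the annotation as well. Per kilobase of exon, Rbp3 had 15450 ± 1502 normalized counts (SD, n = 58), Abca4 2554 ± 165, Rlbp1 1264 ± 125, Rdh12 1252 ± 102, Rdh8 801 ± 86.1, Dhrs3 599 ± 73.9, Rdh11 200 ± 18.3 and Rdh10 181 ± 29.1. The photoreceptor transcripts for the secreted carrier and the disc transporter were the highest, and those of the dehydrogenases Rdh10 and Rdh11 the lowest. The libraries of Rbp3 did not overlap those of Abca4, nor those of Abca4 with Rlbp1, nor those of Dhrs3 with Rdh11. The other neighbors in this order, Rlbp1 with Rdh12, Rdh12 with Rdh8, Rdh8 with Dhrs3 and Rdh11 with Rdh10, overlapped. Relative to its own mean, Rdh10 varied most over the libraries, with a coefficient of variation of 16.1%, and Abca4 least, with 6.45%.

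**Figure D1:**
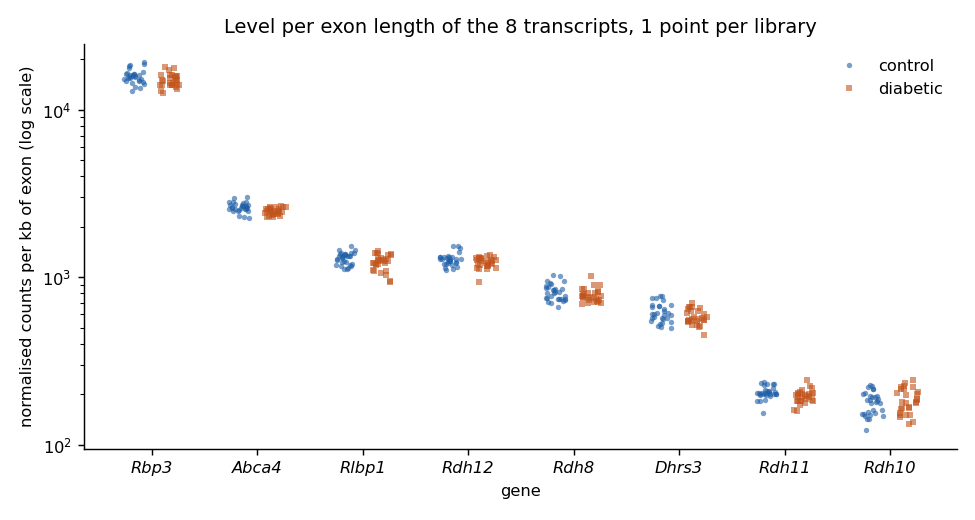
Normalized counts per kilobase of exon on a log axis for the 8 genes, 1 point per library, with 30 control libraries as circles and 28 diabetic libraries as squares. Rbp3 lies highest, around 15450, and Rdh11 and Rdh10 lowest, around 200 and 181.

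The first question was whether diabetes changed the level of these transcripts, over all time points. Only Abca4 passed the threshold, and it was lower in diabetic retinas. Abca4 lies at chr3:122044443-122180123 (GRCm38, + strand) and has 56 exons. Exon numbers, here and for the other genes, count the merged exons of all annotated transcripts. On the opposite strand 2 pseudogenes overlap Abca4, Gm43157 within its span and Gm43158 running past its end, which share none of its exon bases. The 30 control libraries had 27199 to 36371 normalized counts of Abca4 with a median of 31431, and the 28 diabetic libraries 27365 to 31844 with a median of 29671. The ranges overlapped widely, the diabetic median was the lower one, and the highest control libraries lay above every diabetic library. Expression of Abca4 in diabetic relative to control retinas differed by -5.73% (95% interval -8.70% to -2.67%), a log2 fold change of -0.09 ± 0.02 (SE) with an adjusted p of 0.0305 by edgeR's quasi-likelihood test with Benjamini-Hochberg adjustment over 19120 genes. This is 1 of the 8 genes, and 1.41% of all genes tested were called lower in diabetic retinas. In bulk retina, fewer photoreceptors and less RNA per photoreceptor cannot be told apart.

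The call of Abca4 held in each of the 58 fits that left out 1 library, with an adjusted p of 0.0151 to 0.0455 by edgeR. It also held with DESeq2 (0.0111) and in edgeR with time point as a factor (0.00856). It was lost without the 3 libraries with lens markers, with a log2 fold change of -0.08 and an adjusted p of 0.0771. It was also lost without a filter on low counts (adjusted p 0.10) and without ZT1, ZT5, ZT13, ZT17 or ZT21, with adjusted p-values of 0.0663 to 0.160. Its log2 fold change stayed between -0.10 and -0.07 over all 73 alternatives.

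The other photoreceptor transcripts had lower means in diabetic retinas, by similar amounts, without passing the threshold. Rbp3 (chr14:33954003-33964216, 4 exons) had 68816 to 101657 normalized counts with a median of 83679 in control libraries, and 66618 to 95355 with a median of 78673 in diabetic libraries, a difference of -5.56% (95% interval -9.99% to -0.91%) with an adjusted p of 0.227 by edgeR. Rdh12 (chr12:79208914-79222665, 6 exons), whose product protects the inner segment from free retinal, had a median of 3802 in control and 3677 in diabetic libraries, a difference of -4.36% (-8.21% to -0.34%, adjusted p 0.284). Rdh8 (chr9:20818503-20826117, 6 exons), which reduces all-trans-retinal in the outer segment, had a median of 1139 and 1078, a difference of -4.66% (-9.46% to 0.40%, adjusted p 0.388), and without ZT17 its log2 fold change went from -0.07 to -0.03. Dhrs3 (chr4:144892827-144928209, 7 exons), a reductase first described in cones, had a median of 1769 and 1644, a difference of -6.33% (-11.7% to -0.68%, adjusted p 0.265).

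Photoreceptor markers and those of some other cells had lower values too. Of the 10 rod markers, 3 were called lower and none higher, and of the 10 cone markers 4 were called lower and none higher. Median log2 fold changes were -0.09 for rod and -0.12 for cone markers, and -0.10 for each of the lists of 5 bipolar, 5 microglia and 5 endothelium markers, of which 1 was called, Cx3cr1 of microglia, lower. For 5 amacrine and 5 ganglion cell markers the medians were -0.00068 and 0.06, and 1 of these 10, Chat of amacrine cells, was called higher in diabetic retinas (log2 fold change 0.20, adjusted p 0.0404). The rod markers in sum had 564001 to 829444 normalized counts with a median of 677802 in control libraries, and 555309 to 758959 with a median of 642370 in diabetic libraries. With this sum as a covariate, an alternative chosen after seeing the data, Abca4 had a log2 fold change of -0.07 with an adjusted p of 0.0367, while the differences of Rdh8 and Rdh12 shrank to -0.0075 and -0.01 and those of Rbp3 and Dhrs3 turned to 0.02 and 0.0073, all with adjusted p-values above 0.48. Rlbp1 went from -0.09 to -0.04 and Rdh11 from -0.08 to -0.06 under the same covariate. The rod list holds no visual cycle enzyme.

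Among the transcripts of Muller glia and other cells, Rlbp1 and Rdh11 had lower means in diabetic retinas and Rdh10 a higher one, and none of the 3 passed the threshold. Rlbp1 (chr7:79374870-79387048, - strand, 10 exons) had 3289 to 4557 normalized counts with a median of 3910 in control libraries and 2774 to 4236 with a median of 3674 in diabetic libraries, a difference of -5.84% (-10.3% to -1.13%) with an adjusted p of 0.203 by edgeR. Rdh11 (chr12:79174337-79192293, - strand, 8 exons), which lies next to Rdh12 with 16620 bases between the 2 genes and no shared exon, had a median of 701 and 670, a difference of -5.51% (-9.71% to -1.12%, adjusted p 0.196). Rdh10 (chr1:16105774-16133734, + strand, 6 exons) had a median of 754 and 745, a difference of 3.22% (-4.69% to 11.8%, adjusted p 0.802). The log2 fold change of Rdh10, 0.05, was 0.10 with the pigment epithelium covariate described with time of day (adjusted p 0.0926), 0.08 without ZT9, 0.02 without ZT21, and 0.03 without control ZT5 replicate 5 or diabetic ZT21 replicate 2. The Muller glia markers gave no call in either direction among 10, with a median log2 fold change of -0.00065.

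Over the 8 genes, 7 had a negative and 1 a positive fold change, with a median of -0.08 on the log2 scale, where the median over all genes was 0.0012 and 49.4% of all genes had a negative one. An unadjusted p under 0.05 was reached by 6 of the 8, and by 2970 of all 19120 genes. The genes share libraries and several share their cells, so these counts are no more than a description.

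**Figure D2:**
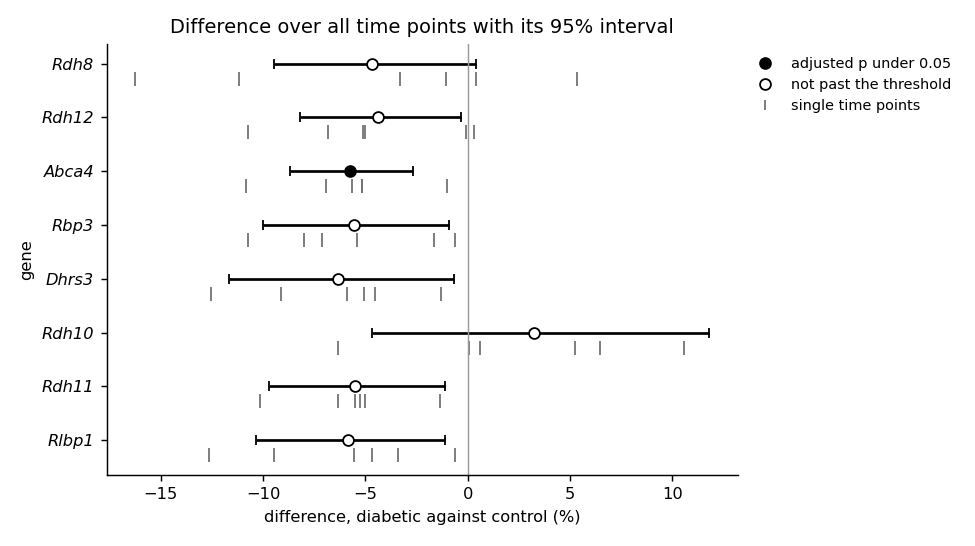
Percent difference of diabetic against control retinas for each gene. Circles give the difference over all time points with its 95% interval, filled where the adjusted p was under 0.05, and ticks give the 6 single time points. Abca4 is the filled one, and Rdh10 alone has its circle above 0.

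Tested within each time point, in 1 fit of the 12 groups, none of the 48 pairs of a gene and a time point passed the threshold by edgeR or by DESeq2. Of the 48, 7 had an unadjusted p under 0.05 by edgeR and 6 by DESeq2, and over all 19120 genes and the 6 time points 6515 values had one by edgeR. Over all genes the test called 0.167% at ZT17, 0.0209% at ZT5, 0.0105% at ZT1 and 0.00523% at ZT9, and 0% at ZT13 as at ZT21. Leaving out 1 library moved the 32 calls at ZT17 to between 3 and 96, the 4 at ZT5 to between 2 and 8, the 2 at ZT1 to between 0 and 4 and the 1 at ZT9 to between 0 and 2, and gave 0 or 1 at ZT13 and at ZT21. At ZT13 and ZT21, where edgeR called none, 852 and 892 genes had an unadjusted p under 0.05, and DESeq2 called 1 and 2. The estimates were negative in 40 of the 48 pairs and ran from -16.2% to 10.6%, where 47.4% to 51.2% of all genes had a negative estimate at a time point. The lowest was that of Rdh8 at ZT17. There the control libraries had 1224, 1248, 1341, 1432 and 1458 normalized counts and the diabetic libraries 1068, 1080, 1090 and 1259, so that 3 of the 4 diabetic libraries lay below every control library and replicate 3 lay within them. The difference was -16.2% (95% interval -25.0% to -6.48%) with an unadjusted p of 0.00266 and an adjusted p of 0.202. Abca4 at ZT17 had 30608, 33174, 34036, 35711 and 36371 in control and 27790, 30349, 31480 and 31709 in diabetic libraries, a difference of -10.8% (-17.1% to -4.08%) with an unadjusted p of 0.00329 and an adjusted p of 0.218. All but 1 control library, replicate 4, lay above the diabetic ones.

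**Figure D3:**
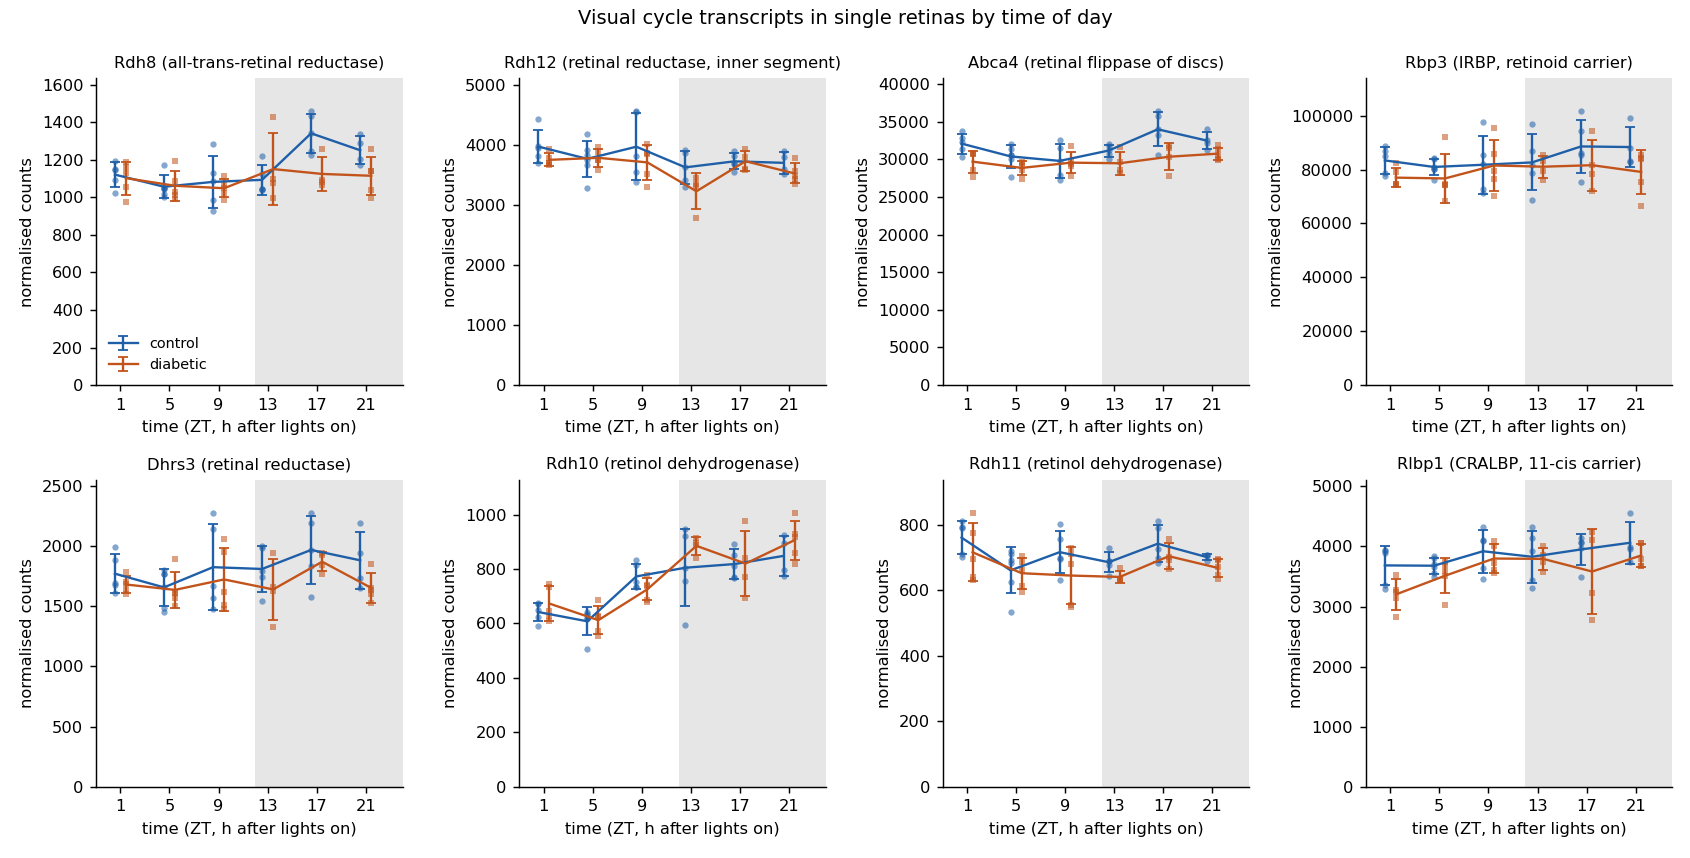
Normalized counts of the 8 genes against time in h after lights on, with points for single libraries, lines through the means and bars of 1 SD, control as circles and diabetic as squares, and the dark phase shaded. Rdh10 climbs from about 608 and 612 at ZT5 to 848 and 906 at ZT21 in control and diabetic retinas, and the largest gap between the lines of Rdh8 is at ZT17.

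The second question was which of the transcripts followed a daily rhythm. A transcript was called rhythmic by an unadjusted p under 0.05 in empirical JTK_CYCLE, a rank test of 24 h waveforms against shuffled series, together with a minimum fold between the highest and lowest library. In control retinas 3 of the 8 genes were rhythmic, Rdh10, Rdh8 and Abca4, where 21.8% of all genes were. In diabetic retinas 2 of the 8 were, Rdh10 and Rlbp1, where 23.9% of all genes were. The acrophase, the peak of a fitted cosine, lay in the dark phase for all of them.

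Rdh10, a retinol dehydrogenase, was the most rhythmic of the 8. In control retinas its means were 642, 608, 773, 805, 818 and 848 normalized counts at ZT1, ZT5, ZT9, ZT13, ZT17 and ZT21, and in diabetic retinas 673, 612, 726, 885, 820 and 906. The lowest means came at ZT5 in both genotypes. In control retinas the 5 libraries at ZT9, from 733 to 832, all lay above the 6 at ZT5, from 506 to 641, still in the light. In diabetic retinas those at ZT9, from 681 to 778, overlapped those at ZT5, from 553 to 685. The empirical p of control retinas was 0.000171 (0.00609 after Benjamini-Hochberg adjustment over all genes), and that of diabetic retinas 4.1e-05 (adjusted 0.00246). Acrophases were ZT16.0 and ZT16.8, and relative amplitudes, the cosine's amplitude in percent of its mean, 15.2% and 18.1%.

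Rdh8 was rhythmic in control retinas with an empirical p of 0.000728 (adjusted 0.0163), an acrophase of ZT18.7 and a relative amplitude of 11.3%. Its control means stayed between 1056 and 1121 from ZT1 to ZT13 and were 1341 at ZT17 and 1250 at ZT21. In diabetic retinas the means lay between 1048 and 1150 at all times, the empirical p was 0.427 and the relative amplitude 3.69%. Abca4 was rhythmic in control retinas with an empirical p of 0.00462 (adjusted 0.0523), an acrophase of ZT19.4 and a relative amplitude of 5.90%, and its means went from 29781 at ZT9 to 33980 at ZT17. The call of Abca4 ended with adjusted p-values and with the fold taken between means of time points, which was 1.14, and without ZT17 Abca4 lost the call, at a p of 0.0245, because its fold between libraries fell under the minimum. Without ZT17 the p of Rdh8 was 0.0494. In diabetic retinas the p of Abca4 was 0.187 and the amplitude 2.62%.

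Rlbp1 was called rhythmic in diabetic retinas with an empirical p of 0.0305 (adjusted 0.153) and an acrophase of ZT13.8, and had a p of 0.224 in control retinas. Its diabetic libraries at ZT1 were low, with 2822, 3139, 3235, 3282 and 3528 normalized counts, and without ZT1 the p was 0.545. It was 0.139 without ZT5 and 0.0837 without ZT21. Leaving out 1 library ended the call in 9 of 28 cases, with p-values of 0.0550 to 0.0799. These were the diabetic libraries ZT1 replicates 2, 3, 4 and 5, ZT5 replicate 2, ZT17 replicates 1 and 3, and ZT21 replicates 1 and 3. Rdh12, with a p of 0.0677 in diabetic retinas, gained the call when ZT5 replicate 5, ZT9 replicate 1 or 2, ZT17 replicate 3 or 5 or ZT21 replicate 3 was left out, with p-values of 0.0215 to 0.0491, and without ZT9 (0.0473) or ZT17 (0.0104). The fitted cosine of Rdh12 peaked in the light, at ZT4.1 in control and ZT3.0 in diabetic retinas. For Rbp3, Dhrs3 and Rdh11 the p was above 0.27 in both genotypes.

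A cosine tested on the counts with edgeR, with Benjamini-Hochberg adjustment, called Rdh10 (adjusted p 0.000879), Rdh8 (0.00215) and Abca4 (0.0311) in control retinas, where 11% of all genes were called, and Rdh10 alone (8.05e-05) in diabetic retinas, where 12.4% were. Rlbp1 had an adjusted p of 0.268 there.

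Night, the mean of ZT13, ZT17 and ZT21, was then set against day, the mean of ZT1, ZT5 and ZT9. Night retinas were dissected under dim red light, so the light at dissection and the time of day cannot be told apart. Rdh10 was higher at night in both genotypes. Its 16 control day libraries had 506 to 832 normalized counts with a median of 646 and the 14 control night libraries 594 to 946 with a median of 809, a difference of 22.3% (95% interval 14.4% to 30.8%) with an adjusted p of 3.87e-05 by edgeR. The 15 diabetic day libraries had 553 to 778 with a median of 681 and the 13 night libraries 694 to 1006 with a median of 888, a difference of 29.6% (20.9% to 38.8%, adjusted p 3.11e-07). All but 1 of the 14 control night libraries and all 13 diabetic ones lay above the day median of their genotype. Rdh8 was higher at night in control retinas, with a day median of 1069 (926 to 1282) and a night median of 1221 (1036 to 1458), a difference of 12.4% (5.79% to 19.4%, adjusted p 0.0103). In diabetic retinas the difference of Rdh8 was 5.03% (-1.36% to 11.8%, adjusted p 0.335). Its log2 value, 0.07, was 0.03 without diabetic ZT13 replicate 5 and also with the pigment epithelium covariate.

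These calls make 2 of the 8 genes in control retinas, where 3.91% of all genes were called higher at night, and 1 of the 8 in diabetic retinas, where 6.54% were. The 6 others lay between -5.84% and 7.55% in control retinas. Of these, Dhrs3 was at 7.55% in control and 1.90% in diabetic retinas (log2 0.03 in diabetic retinas, and -0.0041 to 0.06 without single libraries), Rbp3 at 5.10% and 2.40% (log2 0.03 in diabetic retinas, and 0.0092 to 0.06 without single libraries), Rlbp1 at 4.61% and 6.54% and Rdh11 at -0.54% and -0.33%, with adjusted p-values of 0.212 to 0.962 by edgeR. Abca4 was at 5.51% in control retinas (1.38% to 9.81%, adjusted p 0.0948) and at 2.36% in diabetic retinas (-1.78% to 6.67%, adjusted p 0.508). Its diabetic log2 value, 0.03, was 0.02 to 0.05 without single libraries. The control value passed the threshold with DESeq2 (adjusted p 0.0387) and without control ZT9 replicate 4 (0.0442) or control ZT17 replicate 4 (0.0463). Rdh12 had the lowest estimates, -5.84% in control (-10.6% to -0.80%, adjusted p 0.166) and -7.33% in diabetic retinas (-12.2% to -2.20%, adjusted p 0.0529). With the rod covariate Rdh12 passed the threshold in both, with adjusted p-values of 0.0240 and 0.0119. With the pigment epithelium covariate its log2 difference went from -0.09 to -0.06 in control retinas (adjusted p 0.558) and from -0.11 to -0.05 in diabetic ones (adjusted p 0.758). Leaving out control ZT5 replicate 5, control ZT9 replicate 4 or 5, diabetic ZT9 replicate 1, diabetic ZT13 replicate 1 or diabetic ZT21 replicate 3 brought the diabetic value of Rdh12 past the threshold, with adjusted p-values of 0.0399 to 0.0497.

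**Figure D4:**
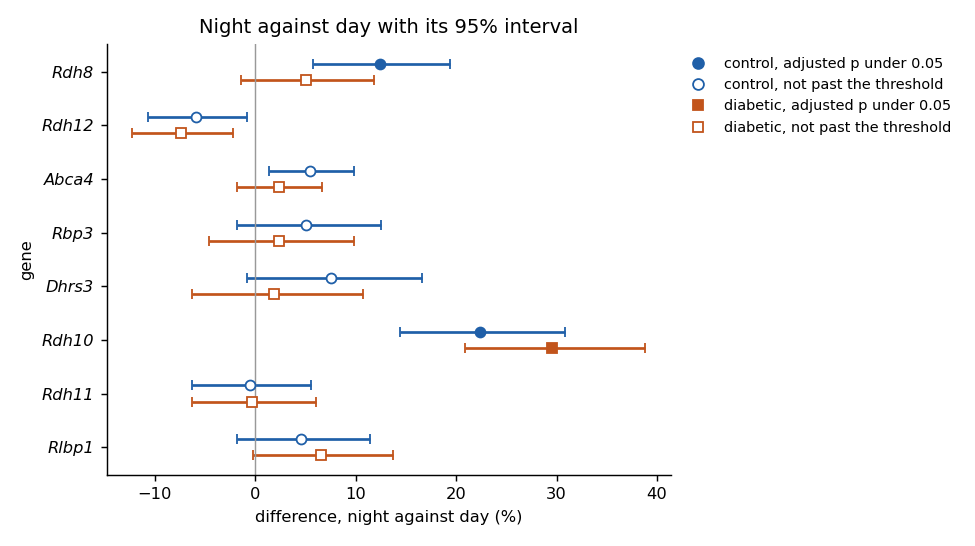
Percent difference of night against day for each gene with its 95% interval, control as circles and diabetic as squares, filled where the adjusted p was under 0.05. Rdh10 is filled in both genotypes, at 22.3% and 29.6%, and Rdh8 in control retinas only, at 12.4%; the difference between genotypes was tested separately and called no gene.

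A part of the pigment epithelium markers moved with Rdh10. Of the 10 markers all were expressed, and 5 were called higher at night in control and 8 in diabetic retinas, none lower. Markers of some other cells were higher at night as well. Over all genes 3.91% were called higher at night in control and 6.54% in diabetic retinas. Of the 10 Muller glia markers 2 were called higher in control and 4 in diabetic retinas and none lower, with median log2 differences of 0.13 and 0.15. Among the 5 bipolar markers 4 were called higher in each genotype. The 10 rod markers had 2 called lower in each genotype and none higher. The 10 cone markers had 1 called lower in each genotype and 1 higher in diabetic retinas. The 5 endothelium markers had 1 called lower in control and 1 higher in diabetic retinas. Over all 19120 genes 783 were called lower at night in control and 1477 in diabetic retinas. The part of these cells in the levels of Rdh10 was not tested. In sum the pigment epithelium markers had 415 to 2316 normalized counts by day and 701 to 3614 by night in control libraries, and 386 to 1917 by day and 1076 to 4270 by night in diabetic libraries. Like Rdh10, the sum was already high at ZT9 in control retinas, at 2015 ± 202 (SD, n = 5) against 1158 ± 358 at ZT5 (n = 6), and in diabetic retinas it was 1379 ± 356 against 459 ± 55.1 (n = 5 each). In control retinas the 5 called were Rpe65, Lrat, Rdh5, Stra6 and Ttr, genes of retinoid handling and transport. The others, Best1 and the melanosome genes Pmel, Tyr, Tyrp1 and Dct, had log2 differences of -0.04 to 0.35 and were not rhythmic there. The 2 markers not called higher at night in diabetic retinas were Best1, a channel of the epithelium, and Pmel. Named after their values were seen, they had log2 differences of 0.04 and 1.15. The part of the epithelium in the levels of Rdh10 was not tested. The sum itself moved with time of day, so the covariate and the relations that follow cannot tell an epithelial share from a shared time course.

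With the sum as a covariate, an alternative chosen after seeing the data, the log2 fold change of Rdh10 between night and day went from 0.29 to 0.18 in control retinas (adjusted p 0.0181) and from 0.37 to 0.17 in diabetic retinas (adjusted p 0.178). Rdh8 in control retinas went from 0.17 to 0.15 (adjusted p 0.0897). Over all genes this covariate took the calls between night and day from 1530 to 831 in control and from 2728 to 546 in diabetic retinas.

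Within a genotype and period, 8 relations of the marker sum with Rdh10 and Rlbp1 were computed over libraries, each with a permutation test and Benjamini-Hochberg adjustment over the 8. Rdh10 followed the sum over the 16 control day libraries (Pearson r 0.85, permutation p 1e-05, adjusted 8e-05, Spearman coefficient 0.84, adjusted permutation p 0.00024) and the 15 diabetic day libraries (r 0.70, permutation p 0.00344, adjusted 0.0138, Spearman coefficient 0.68, adjusted 0.0276). The first of these p-values is the smallest that the permutations can give. Without the 2 libraries farthest from the median sum, r was 0.86 and 0.70. Over the 14 control night libraries r was 0.62 (permutation p 0.0192, adjusted 0.0383, Spearman coefficient 0.61, adjusted 0.0471), but 0.25 without the 2 farthest, so this relation rests on those libraries. Over the 13 diabetic night libraries r was 0.49 (permutation p 0.0938, adjusted 0.125, Spearman coefficient 0.46). The permutations shuffled libraries across the time points of a period, and these time points differ in both measures. The coefficients and p-values therefore include the differences between time points. They do not test a relation among libraries of the same time point. Rlbp1 followed the sum over the control night libraries (r 0.68, adjusted permutation p 0.0205, Spearman coefficient 0.64, adjusted 0.0398, and r 0.70 without 2), and its other adjusted p-values were 0.0623 to 0.428 for r and 0.0734 to 0.585 for Spearman coefficient.

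**Figure D5:**
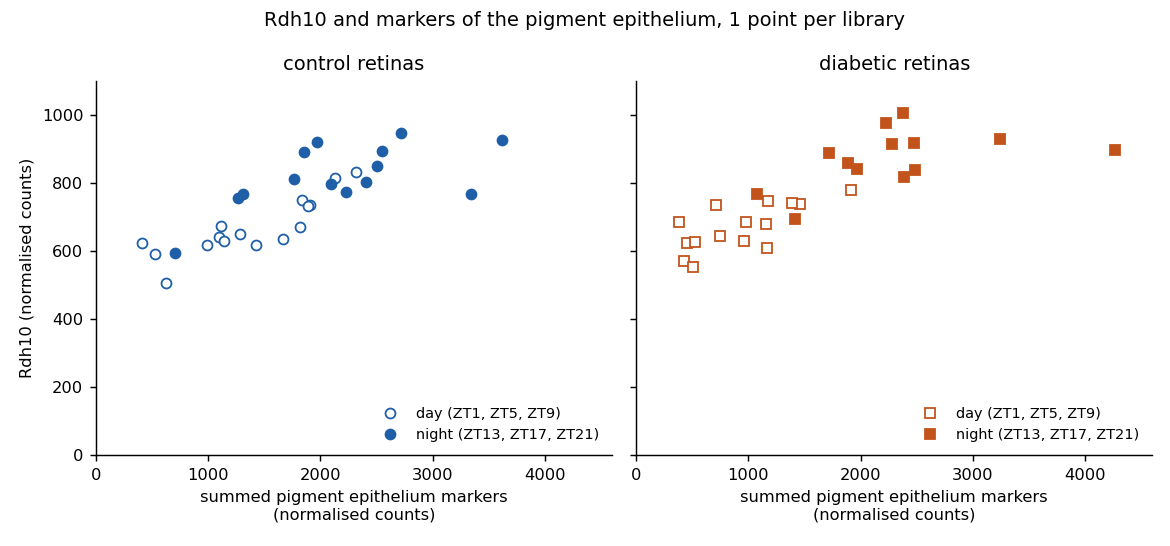
Normalized counts of Rdh10 against the sum of 10 pigment epithelium markers, 1 point per library, control retinas on the left and diabetic retinas on the right, open for day and filled for night. The 16 control day libraries hold 506 to 832 counts of Rdh10 and the 14 control night libraries 594 to 946, and night libraries lie mostly to the upper right.

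No difference of time of day between the genotypes passed the threshold. For the difference of the night against day contrasts, edgeR and DESeq2 each called 0 of the 8 genes, and none had an unadjusted p under 0.05. Over all genes edgeR called 0%, with 642 genes under an unadjusted 0.05, and DESeq2 called 2. The interval of the difference, diabetic relative to control, was -14.4% to 1.97% for Rdh8 and -3.84% to 16.6% for Rdh10, so effects of those sizes are left within the error. For Abca4, Rbp3, Dhrs3, Rdh12, Rdh11 and Rlbp1 the estimates were -2.99%, -2.56%, -5.26%, -1.58%, 0.22% and 1.85%. A test of genotype by cosine and sine called 0 of the 8, 0% of all genes and 657 genes at an unadjusted p under 0.05, and DESeq2 called 0. Rdh8 came nearest of the 8, with an unadjusted p of 0.0590 and an adjusted p of 1.00. The rhythm of Rdh8 and Abca4 in control but not in diabetic retinas is therefore not shown to be a difference between the genotypes.

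The other retinoid genes were followed in 4 lists. Of 8 genes of the visual cycle in the pigment epithelium, all were expressed, none was called between the genotypes, and all but Rbp4, 7 genes, were called higher at night in each genotype. Rpe65, Lrat, Rdh5, Stra6 and Ttr, 5 of these 8, are also among the 10 pigment epithelium markers, so this list is no separate result. The median log2 difference of the 8 was 0.75 for control and 1.20 for diabetic retinas. Ttr, the transthyretin that carries retinol-binding protein, had a log2 difference of 0.97 ± 0.18 (SE, adjusted p 0.000169) in control and 1.70 ± 0.19 (adjusted p 3.7e-09) in diabetic retinas by edgeR. Rgr, an opsin of the epithelium, had 0.89 ± 0.17 and 1.59 ± 0.18, and Lrat, which makes the retinyl esters, 0.90 ± 0.17 and 1.29 ± 0.19. These estimates were higher than those of Rdh10, which was not tested.

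Of 15 further retinol dehydrogenases and retinyl ester enzymes, 10 were expressed. Between the genotypes only Rdh1 was called, lower in diabetic retinas at 18.3 ± 6.09 (SD, n = 30) in control and 13.3 ± 4.18 (n = 28) normalized counts, with a log2 fold change of -0.43 ± 0.12 (SE) and an adjusted p of 0.0275. Rdh13, a mitochondrial dehydrogenase, was called lower at night in both genotypes (log2 difference -0.16 ± 0.04 in control, adjusted p 0.00804), and Dgat1 in diabetic retinas (-0.15 ± 0.05, adjusted p 0.0396). Of 14 genes of retinoic acid synthesis, binding and reception, 13 were expressed, none was called between the genotypes, and 2 in each genotype were called higher at night. Among these, Rarb had a log2 difference of 0.19 ± 0.05 in each (adjusted p 0.0157 and 0.0154), with Rara in control (0.29 ± 0.09, adjusted p 0.0300) and Rxrg in diabetic retinas (0.26 ± 0.08, adjusted p 0.0164). The cone opsins Opn1sw and Opn1mw gave no call between the genotypes, with log2 fold changes of -0.07 ± 0.06 and -0.17 ± 0.05 (adjusted p 0.634 and 0.0588 by edgeR), and Opn1sw was higher at night in diabetic retinas (0.20 ± 0.06, adjusted p 0.0108).

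The transcripts closest to 7 of the 8 genes over the 12 means of genotype and time point were sought among 11225 others with at least 100 normalized counts on average, as a description. Rdh10 was closest to Stra6, the receptor for retinol-binding protein (r 0.97), Enpp2 (0.97) and Thbs1 (0.96). Stra6 is one of the pigment epithelium markers. Abca4 was closest to 2310022B05Rik (0.96), Tmem59l (0.95) and Rom1, a disc rim protein of photoreceptors (0.95), and Rbp3 to Slc25a11, Grk1, a kinase of photoreceptors, and Eif3h (0.93 each). Dhrs3 was closest to Pabpc1 (0.96), Clta and Mxd1 (0.95 each), Rdh12 to Dffa (0.97), Ogfod2 (0.96) and Jagn1 (0.92), and Rdh8 to Atp6v1f (0.93), Hsbp1 and Rpl41 (0.92 each). Rdh11 was closest to Hist1h2bc, H2afx and Ahsa1 (0.92 each). Among the 8 genes themselves, correlations ran from -0.60 for Rdh10 with Rdh12 to 0.86 for Abca4 with Rbp3.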

How the data were processed

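The authors deposited 1 table of raw HTSeq-count (0.11.1) counts per gene symbol, made after alignment with STAR (2.7.4a) to GRCm38.p5 with Gencode annotation, neither normalized nor filtered. Each column was assigned by its title and 0 value columns were left unused. The strand setting of the counting is not given in the sources used here. Genes with a median above 4 DESeq2-normalized counts over all 58 libraries were tested (19120). Diabetic against control, night against day and their difference were tested with edgeR 4.0.16 (quasi-likelihood, TMM) in R 4.3.3, with Benjamini-Hochberg adjustment over all tested genes and a threshold of 0.05. Intervals of 95% are 1.96 SE on either side. Empirical JTK_CYCLE was written anew (30 waveforms, 1000000 shuffled series), and the difference of rhythm was tested on the counts in place of DODR. Scripts were tested on simulated data. DESeq2 1.42.0, normalizations, filters, time points and single libraries were alternatives. All 113 pairs of replicates differed by more than sampling noise (chi-square per degree of freedom at least 1.86). Exon lengths, over the merged exons of all transcripts of a gene, and positions are from Gencode on GRCm38. All 8 genes are named in the comparisons of level, genotype and time of day, from each list of other retinoid genes up to 3 called ones with the smallest p, and as closest transcripts the 3 with the highest correlation. Genes, lists and tests were chosen with earlier results of these data known. Some results under these rules, among them the closest transcripts of Rlbp1, are not reported here.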

Additional observations from a re-analysis of the deposited data

Results flagged for a closer look

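Of 96 groups of a gene, genotype and time point, 7 held a library far from the others of its group by Dixon's test, where chance gives about 1 in 20. Diabetic ZT5 replicate 4 was the highest in 2 of them, with 91981 normalized counts of Rbp3 against 68245 to 74757 in the other libraries and 1890 of Dhrs3 against 1500 to 1608. Control ZT5 replicate 5 was also in 2, with 1172 of Rdh8 against 1000 to 1051 as the highest and 506 of Rdh10 against 617 to 641 as the lowest. Rdh8 was high in diabetic ZT17 replicate 3, at 1259 against 1068 to 1090, and this is the library that overlapped the control retinas at that time. Rdh11 was high in diabetic ZT13 replicate 5, at 668 against 629 to 632, and Rlbp1 was low in control ZT17 replicate 4, at 3499 against 3973 to 4146. Control ZT5 replicate 5 and diabetic ZT13 replicate 5 also had high sums of cornea and ciliary body markers, 509 and 124, and diabetic ZT13 replicate 5 had the highest pigment epithelium sum, 4270. The part of these markers in the values was not tested.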

How the results depend on the processing

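For single genes, 2196 of 2272 values under alternatives kept their direction and side of the threshold. The count of genes called between the genotypes, 1 in the main test, was 0 without a filter on low counts, without the libraries with lens markers and without ZT1, ZT5, ZT13, ZT17 or ZT21. With the pigment epithelium covariate, calls between night and day went from 2 to 1 in control retinas and from 1 to 0 in diabetic ones, which had 2 with the rod covariate, where control retinas had 3. The covariates and the fits without lens markers were chosen after seeing the data. Rhythmic genes in control retinas fell from 3 to 2 with adjusted p-values, with the fold between means and without ZT17. Those in diabetic retinas fell from 2 to 1 with adjusted p-values, with the fold between means of time points, with the edgeR cosine and without ZT1, ZT5 or ZT21. Over fits that left out 1 library the counts ran from 2 to 3 in control and 1 to 2 in diabetic retinas for night against day, and from 1 to 3 for rhythm in diabetic retinas. No reversed direction passed the threshold. On the log2 scale, diabetic against control turned with the rod covariate in Rbp3 (0.020) and Dhrs3 (0.0073). Night against day turned with the pigment epithelium covariate in Rlbp1 (-0.0086 in control, -0.052 in diabetic retinas) and Rbp3 (-0.016, diabetic). In Rdh11, near 0, it turned in control retinas with the replicate block (0.0050) and without single libraries (-0.025 to 0.0057), and in diabetic retinas with DESeq2 (0.0019), its size factors (0.0013), no filter (0.0038) and without single libraries (-0.018 to 0.020). Dhrs3 in diabetic retinas ran from -0.0041 to 0.057 without single libraries. The causes were not tested. Control and diabetic libraries with the same number had a median correlation of deviations of 0.243 (-0.41 to 0.78), above 0.1 in 19 of 26 pairs, against a median of -0.057 and 33 of 114 pairs for other numbers. This is a hint of pairing in the data. Pairing was to be taken as given only with every pair above 0.1, and the labels do not state it. With the replicate block, rhythmic genes in control retinas went from 3 to 5, adding Dhrs3 and Rdh11, and calls between night and day in diabetic retinas from 1 to 2, adding Rdh12. Genes called between the genotypes went from 572 to 239 without ZT17, to 225 without ZT21, to 267 without ZT5, to 322 without ZT1, to 357 without ZT9, to 919 with time as a factor, to 3722 with the rod covariate and from 572 to 387 without a filter. Over all genes at single time points, calls went from 32 to 87 at ZT17, from 4 to 24 at ZT5, from 2 to 6 at ZT1 and from 1 to 4 at ZT9 with DESeq2, from 32 to 60 and from 4 to 10 at ZT17 and ZT5 with the replicate block, and to 348, 103 and 74 at ZT17, ZT21 and ZT5 with the rod covariate, which also gave 4127 calls between night and day in diabetic retinas. With adjusted p-values the rhythmic genes were 1573 of the tested genes in control and 1967 in diabetic retinas, and with the fold between means of time points 2532 and 2710. Without ZT17 they were 2691 in control retinas.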
